A study of Homo sapiens with 8 samples.

Results

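The genes described here are 33 genes of the p53 pathway, mostly direct transcriptional targets of p53 together with its regulators MDM2, MDM4 and PPM1D, and their probe sets were found by gene symbol. For 32 of the 33, 1 probe set annotated with that gene alone was found on the array, among 18418 genes tested in all. FDXR, a mitochondrial ferredoxin reductase, had no probe set, alone or shared, in the annotation used here and has no value. The cells were HCT116, an established human colorectal cancer line that carries wild-type p53. One line expressed a control short hairpin RNA (shControl) and the other a hairpin that targets CDK8 (shCDK8), which encodes the kinase of Mediator's kinase module. Both lines were deprived of serum for 40 h and harvested either at that point ("starved") or 30 min after medium with 10% fetal bovine serum was added ("serum"). This gave 4 groups of 2 samples, with 1 array per sample.

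p53 is a transcription factor that is held at a low level by MDM2, a ubiquitin ligase, and by its relative MDM4. After DNA damage and other stresses it is stabilised and activates genes for cell-cycle arrest, DNA repair, apoptosis and metabolic adaptation, among them MDM2 itself, which closes a negative feedback loop. CDK8 has been described in HCT116 cells as a coregulator of p53 targets such as CDKN1A after p53 is activated. No p53-activating agent was among the treatments of these samples, so the levels below are those of p53 target genes in cells without such an agent. Whether serum deprivation or the hairpins activated p53 was not tested. The study's own question was how CDK8 bears on the transcriptional response to serum.

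Levels are log2 values, so a difference of 1 is a 2-fold change, and n is 2 arrays per group throughout. Genes are said to pass, or to be higher, lower or risen, where limma's moderated test gave an adjusted p (Benjamini-Hochberg over all 18418 genes) below 0.05. Whether duplicates were grown apart is not in the labels, and every p-value rests only on the spread of these samples, possibly a technical one. Each line carried a single hairpin, so the knockdown and any other way in which the lines differ cannot be told apart. Duplicates correlated across genes with r between 0.997 and 0.998, and array medians lay between 6.44 and 6.51. The probe set of CDK8, which the annotation shares with ADRA1B, was 4.53-fold lower in shCDK8 cells before serum. The epithelial markers EPCAM, KRT8, KRT18 and KRT19 lay above the 99th percentile of mean levels. PTPRC, DCN and LUM, markers of blood cells and fibroblasts, lay lowest among 11 markers of other cell types, at percentiles 2.42, 2.52 and 0.70. CD3E, PECAM1, VWF and CDH5 lay between percentiles 16.57 and 26.05. The macrophage marker CD68 lay at percentile 53.49, COL1A2 at 43 and ACTA2 at 61.09. VIL1, an intestinal brush-border gene, read only 5.61 on average, and COL1A1, a fibroblast collagen gene, read 8.18, the highest of the markers of other cell types. Of 11 markers of other cell types 1 passed between the lines, ACTA2, higher in shCDK8 cells before serum (log2 0.37 ± 0.09 SE) and after it (0.50 ± 0.09). The summed level of these markers was 61.26 to 62.04 in starved shControl and 61.45 to 61.60 in starved shCDK8 arrays, and after serum 61.11 to 61.46 and 61.20 to 62.16. Among the epithelial markers, KRT8 and KRT18 were higher and KRT19 and CLDN4 lower in shCDK8 cells at both times, 4 of 7 in starved cells, and CDH1 was also higher after serum. Their summed level was 71.74 to 72.02 in starved shControl and 72.13 to 72.49 in starved shCDK8 arrays, and after serum 72.16 to 72.22 and 72.56 to 72.59. The part of these markers in the results below was not tested.

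p53 binds DNA at paired half-sites, and promoter stretches that hold such a pair are shown here. RefSeq promoter windows (GRCh38.p14, 250 bases before to 50 after an annotated start) were found for 26 of the 33 genes, 41 windows in all. They were searched for the p53 consensus half-site of 10 bases, which reads the same on both strands, in pairs with a spacer of at most 13 bases, with the central C and G of each half-site intact and at most 2 mismatches over the pair. Capitals mark the half-sites in the stretches below, each printed 5′ to 3′ on the strand of its gene.
MDM2, chr12:68808893-68808972, plus strand: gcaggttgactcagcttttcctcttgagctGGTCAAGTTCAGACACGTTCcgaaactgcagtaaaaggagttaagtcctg
DDB2, chr11:47214949-47214999, plus strand: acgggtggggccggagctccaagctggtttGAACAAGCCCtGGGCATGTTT
FAS, chr10:88991279-88991358, plus strand: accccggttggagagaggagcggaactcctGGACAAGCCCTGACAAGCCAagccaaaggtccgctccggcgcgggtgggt
AEN, chr15:88621276-88621339, plus strand: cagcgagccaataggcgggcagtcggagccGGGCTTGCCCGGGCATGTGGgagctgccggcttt
ABHD4, chr14:22598244-22598303, plus strand: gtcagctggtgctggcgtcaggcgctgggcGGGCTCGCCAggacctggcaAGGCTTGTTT

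Of the 26 genes with a window, 6 held such a pair in at least 1 window (23.1%): these 5 and FDXR. The share over all 27305 genes with a window was 3.62%, and by windows it was 7 of 41 (17.1%) against 2.93%. The pair in DDB2 matched with no mismatch and lies just after the annotated start, while the other pairs had 2 mismatches. The MDM2 stretch stands before an internal start of the gene. It was counted in 2 overlapping windows, and it also holds a match to the AP-1 motif TGANTCA. That motif was found in 6 of the 41 windows (14.6%) and in 7.71% of all windows, the CRE TGACGTCA in the window of PPM1D and in 1.85% of all windows, and the CArG box, the site of SRF, in none of the 41 and in 1.29% of all. The GDF15 window held none of these motifs. A match is a description of letters, and no match says nothing about the factor, since many p53 sites lie outside such windows. Of the 5 genes shown, MDM2, AEN and ABHD4 passed in both line comparisons below, the first 2 upward and ABHD4 downward, and FAS and DDB2 passed upward only in the average of both times.

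The line with less CDK8 had higher levels of many p53 targets. The p53 pathway genes were chosen with earlier results of these data known. Their shares, here and below, are therefore descriptive and do not test an enrichment. In starved cells 16 of the 32 genes were higher and 5 lower in shCDK8 than in shControl cells, 21 in all (65.6%), where 13.4% of all genes passed. By direction, the 16 higher and 5 lower genes compare with 7.14% and 6.29% of all genes. After serum 16 were again higher and 5 lower, against 14.3% of all genes (7.7% higher and 6.55% lower). The median difference of the 32 genes was 0.25 in starved and 0.29 in serum-treated cells, where the median over all genes was -0.01 at both times. The comparisons at the 2 times share no array, although they use 1 estimate of each gene's spread. In both of them 15 genes were higher and 4 lower, and 31 of the 32 differences had the same sign, the exception being GADD45A. Both comparisons contrast the same lines, and no share over all genes is given here for this agreement. It is therefore not shown to be particular to these genes. In 31 of 32 genes the starved arrays of the lines did not overlap, against 52.1% of all genes, and in 30 of 32 the serum arrays did not, against 53.9%.

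The differences were mostly small. Averaged over both times 21 genes were higher and 6 lower, 27 of 32 (84.4%) against 23.3% of all genes (12% higher and 11.3% lower). The median size was 1.27-fold, and 5 genes differed by at least 1.5-fold: TP53I3, TP53INP1, TIGAR and ZMAT3 upward and PERP downward. Near that fold, 98.0% of all genes and 87.5% of the 32 lay at or below a log2 difference of 0.58. At or below -0.58 lay 0.99% of all genes and 3.125% of the 32. The 32 genes are mostly well-expressed ones, with a median percentile of mean level of 75.1. When only the 13813 genes brighter than the 25th percentile were fitted, 20% of them passed in starved cells, and 22 of the 31 p53 pathway genes among them. Of all genes, 10.3% lay above 0.2 in the averaged comparison, and of the 32 genes 18 did (56.2%). Above 0.4 these shares were 3.99% and 31.2%.

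**Figure D1:**
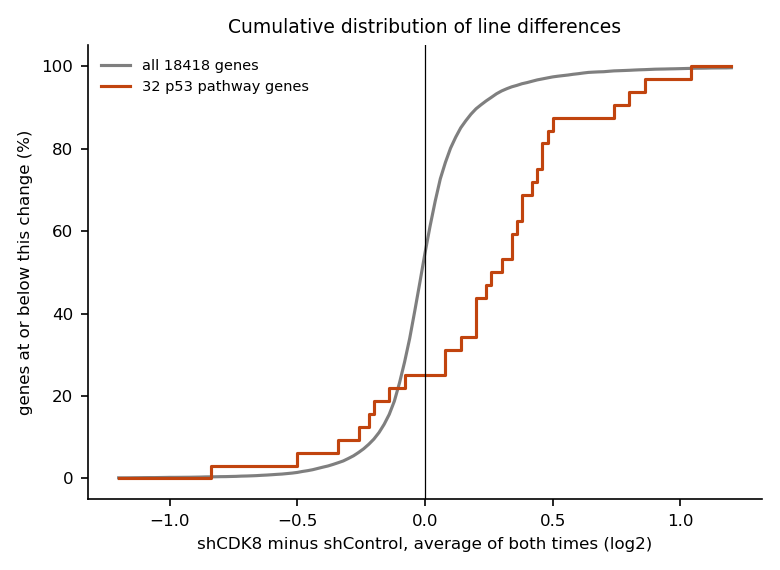
Cumulative share of genes (y axis, percent) at or below each shCDK8 minus shControl difference averaged over both times (x axis, log2), for all 18418 genes (grey) and the 32 p53 pathway genes (red). Between 0 and 1.02 the curve of the p53 pathway genes lies to the right of the grey curve. Above 0.2 lie 56.2% of them against 10.3% of all genes. Between -0.84 and -0.12 their curve lies to the left. At -0.86 it stands at 0% against 0.38% of all genes, and at 1.04 at 100% against 99.45%. The 32 genes were chosen with earlier results of these data known.

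Apoptosis and survival genes held the 3 largest differences in the average of both times, those of TP53I3, PERP and TP53INP1. TP53I3, an oxidoreductase linked to p53-induced oxidative stress, read 8.14 and 8.14 on the starved shControl arrays, 8.0 and 8.14 after serum, 9.11 and 9.18 on the starved shCDK8 arrays and 9.14 and 9.15 after serum. All shCDK8 arrays thus stood about 1 unit above all shControl arrays, and the duplicates lay close together. The level was 2.0-fold higher in starved cells (log2 1.00 ± 0.07 SE, adjusted p = 1.81e-05) and 2.11-fold higher after serum (1.07 ± 0.07, adjusted p = 9.86e-06). TP53INP1, a stress-induced cofactor that promotes p53 phosphorylation and autophagy, read 9.23 and 9.0 in starved and 9.09 and 9.21 in serum-treated shControl cells, against 9.78 and 9.97 and then 10.05 and 10.12 in shCDK8 cells. The lines did not overlap, and the difference was 0.76 ± 0.10 in starved cells (adjusted p = 7.04e-04) and 0.94 ± 0.10 after serum (adjusted p = 1.87e-04). ZMAT3, an RNA-binding zinc-finger protein, stood at 7.54 and 7.68 in starved and 7.46 and 7.52 in serum-treated shControl cells. In shCDK8 cells it stood at 8.19 and 8.46 and then at 8.22 and 8.26, 1.65-fold higher before serum (0.72 ± 0.09, adjusted p = 9.08e-04) and 1.68-fold after it.

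PERP, a tetraspan membrane protein of desmosomes that p53 induces in apoptosis, went the other way. It read 10.94 and 10.98 in starved and 10.93 and 10.92 in serum-treated shControl cells, against 10.13 and 10.13 and then 10.08 and 10.02 in shCDK8 cells. Every shCDK8 array lay below every shControl array, 1.77-fold lower before serum (-0.83 ± 0.06, adjusted p = 2.56e-05) and 1.84-fold lower after it (-0.88 ± 0.06, adjusted p = 1.55e-05). RPS27L, a ribosomal protein paralog induced by p53, read 7.22, 7.06, 6.96 and 7.05 in shControl cells (starved, then serum) and 7.52, 7.68, 7.49 and 7.30 in shCDK8 cells, a difference of 0.46 ± 0.09 in starved cells (adjusted p = 0.0101). AEN, a nuclease active in apoptosis, was higher by 0.26 in starved (adjusted p = 0.0421) and by 0.39 in serum-treated cells (adjusted p = 0.00530). TRIAP1, an inhibitor of apoptosis, passed only in the average of both times (0.19 ± 0.05, adjusted p = 0.0157). PHLDA3, which represses AKT, and PIDD1, a death-domain scaffold, passed in none of these comparisons (0.16 and -0.10 in starved cells). Of these 9 genes 5 were higher and 1 lower at each time. Of all genes 7.14% were higher and 6.29% lower in starved cells, and 7.7% and 6.55% after serum.

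**Figure D2:**
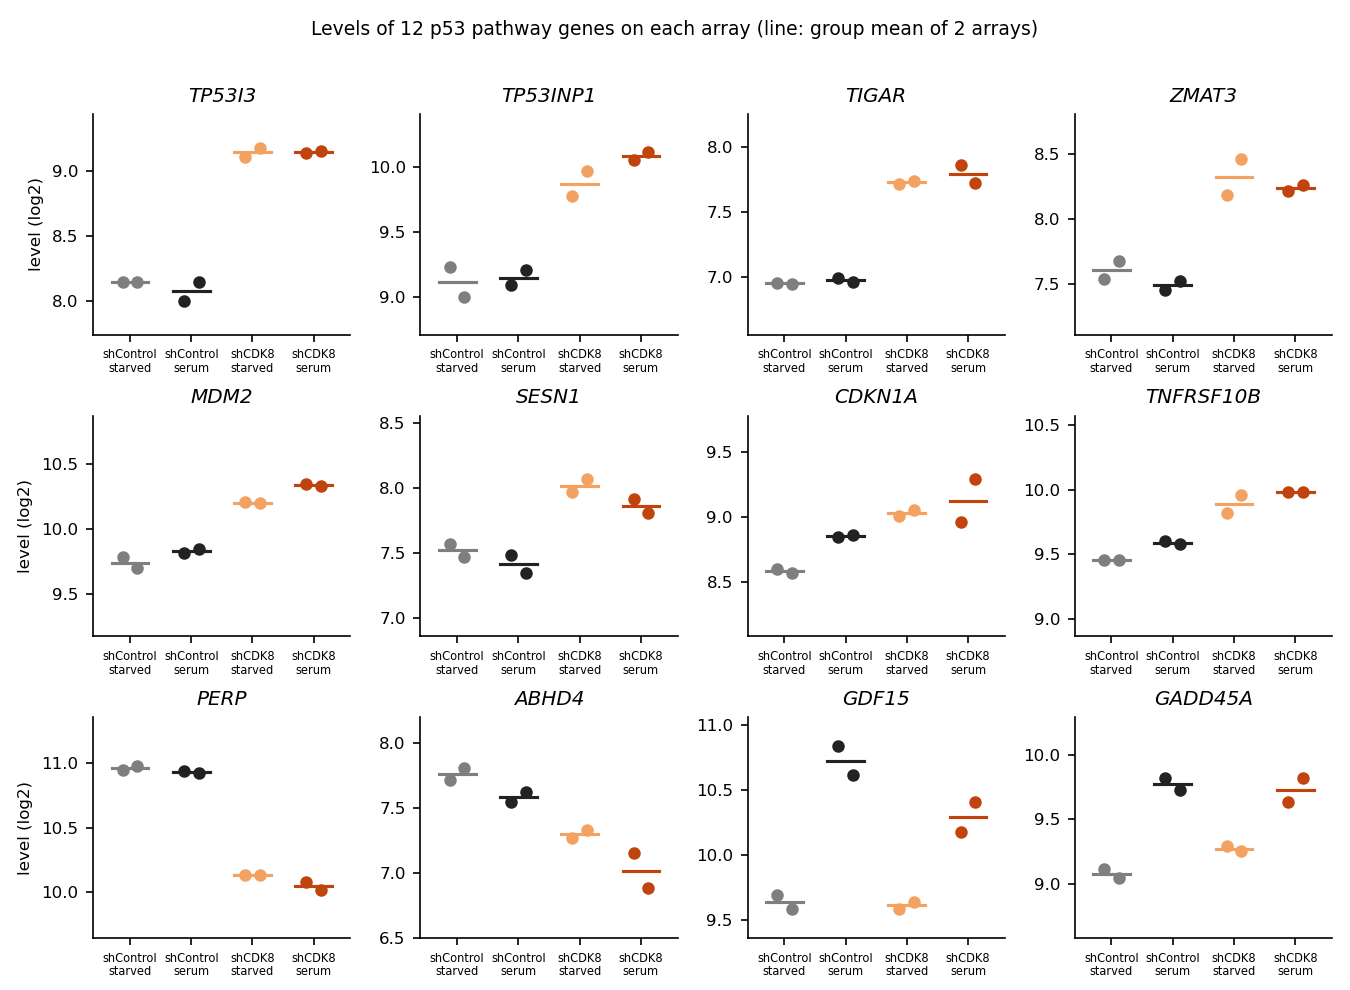
Level (log2) of 12 of the genes on each of the 8 arrays, with 1 panel per gene, 1 point per array and a line at each group mean of 2 arrays; every y axis spans the same range of log2 units around the gene's own mid-level. TP53I3, TP53INP1, TIGAR, ZMAT3, MDM2, SESN1, CDKN1A and TNFRSF10B lie higher on all shCDK8 arrays, PERP and ABHD4 lower, and GDF15 and GADD45A separate starved from serum-treated cells.

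The genes that act back on p53 divided by direction. MDM2, the ubiquitin ligase of p53, read 9.78 and 9.70 in starved and 9.81 and 9.84 in serum-treated shControl cells, against 10.20 and 10.20 and then 10.34 and 10.33 in shCDK8 cells. All 4 shCDK8 arrays were above all 4 shControl arrays, by 0.46 ± 0.06 before serum (1.38-fold, adjusted p = 0.00121) and by 0.51 ± 0.06 after it (1.43-fold, adjusted p = 6.32e-04). CCNG1, a cyclin that recruits a phosphatase to MDM2, read 10.34, 10.11, 10.22 and 10.13 in shControl cells (starved, then serum) and 10.54, 10.67, 10.70 and 10.41 in shCDK8 cells. The arrays of the lines did not overlap, and its difference of 0.38 ± 0.11 passed narrowly at both times (adjusted p = 0.0494 and 0.0456). MDM4, which binds and inhibits p53, was lower in shCDK8 cells, reading 8.24 and 8.19 in starved and 8.35 and 8.35 in serum-treated shControl cells, against 7.90 and 7.96 and then 8.16 and 8.07. The lines did not overlap (-0.29 ± 0.07, adjusted p = 0.0195 in starved cells, and -0.24, adjusted p = 0.0425 after serum). PPM1D, a phosphatase that switches off p53 signalling, was lower by the test in starved cells (-0.27 ± 0.06, adjusted p = 0.0209) and differed by -0.16 after serum (adjusted p = 0.134).

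Genes of cell-cycle arrest and stress signalling were less uniform. CDKN1A, the cyclin-dependent kinase inhibitor p21, read 8.60 and 8.57 in starved and 8.84 and 8.86 in serum-treated shControl cells, and 9.01 and 9.06 and then 8.96 and 9.29 in shCDK8 cells. The serum-treated shCDK8 duplicates were the farthest apart among all duplicates of the 32 genes (SD 0.23). CDKN1A was 1.36-fold higher in starved shCDK8 cells (0.45 ± 0.10, adjusted p = 0.0146), differed by 0.27 ± 0.10 after serum (adjusted p = 0.103) and passed in the average of both times (0.36 ± 0.07, adjusted p = 0.00417). SESN1, a stress-induced inhibitor of mTORC1 signalling, read 7.57, 7.47, 7.48 and 7.35 in shControl cells (starved, then serum) and 7.97, 8.07, 7.91 and 7.81 in shCDK8 cells. It was higher at both times (0.50 ± 0.08, adjusted p = 0.00255, and 0.45 ± 0.08, adjusted p = 0.00439). FBXW7, a substrate receptor of a ubiquitin ligase, passed in the average of both times alone (0.19 ± 0.06, adjusted p = 0.0379). GADD45A, a stress sensor of growth arrest, did not pass between the lines (0.19 and -0.04). GDF15, a secreted TGF-beta family cytokine, did not pass in starved cells (-0.02 ± 0.10, adjusted p = 0.916) and was 1.35-fold lower in shCDK8 cells after serum (-0.43 ± 0.10, adjusted p = 0.0168).

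Of the 4 receptor genes, FAS, TNFRSF10A, TNFRSF10B and EDA2R, 3 were higher in shCDK8 cells at each time and none was lower. Of all genes 7.14% were higher in starved cells and 7.7% after serum. TNFRSF10B, a receptor of the death ligand TRAIL, read 9.46 and 9.46 in starved and 9.60 and 9.58 in serum-treated shControl cells, against 9.82 and 9.96 and then 9.98 and 9.98 in shCDK8 cells. It was 1.35-fold higher in starved (0.43 ± 0.07, adjusted p = 0.00255) and 1.31-fold higher in serum-treated shCDK8 cells. TNFRSF10A, the other death-domain receptor of TRAIL, read 8.49, 8.37, 8.42 and 8.42 in shControl cells (starved, then serum) and 8.71, 8.70, 8.88 and 8.88 in shCDK8 cells. Its difference was 0.28 ± 0.07 before (adjusted p = 0.0211) and 0.46 ± 0.07 after serum (adjusted p = 0.00136). EDA2R, a receptor of ectodysplasin A2, was one of the dimmest of the genes, at 5.49, 5.30, 5.49 and 5.38 in shControl and 5.90, 5.88, 5.94 and 5.73 in shCDK8 cells, and it passed at both times (0.49 ± 0.09, adjusted p = 0.00705, and 0.40 ± 0.09, adjusted p = 0.0191). FAS, the receptor of the FAS ligand, differed by 0.20 and 0.27, short of the threshold at each time (adjusted p = 0.169 and 0.0568), and passed in their average (0.24 ± 0.06, adjusted p = 0.0160).

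Among genes of metabolism and autophagy, TIGAR, a phosphatase that lowers glycolytic flux, read 6.95 and 6.94 in starved and 6.99 and 6.96 in serum-treated shControl cells, against 7.71 and 7.74 and then 7.86 and 7.72 in shCDK8 cells. The lines were far apart relative to the spread of duplicates, 1.71-fold in starved (0.78 ± 0.07, adjusted p = 7.94e-05) and 1.77-fold in serum-treated cells (0.82 ± 0.07, adjusted p = 5.24e-05). CMBL, a hydrolase, read 8.99, 9.0, 8.96 and 9.04 in shControl cells (starved, then serum) and 9.40, 9.42, 9.43 and 9.52 in shCDK8 cells, higher by 0.42 ± 0.07 (adjusted p = 0.00262) and 0.48 ± 0.07 (adjusted p = 0.00115). ABHD4, a lipid hydrolase, was lower, at 7.72, 7.81, 7.55 and 7.63 in shControl and 7.27, 7.33, 7.15 and 6.89 in shCDK8 cells, 1.38-fold in starved (-0.46 ± 0.09, adjusted p = 0.00876) and 1.48-fold in serum-treated cells (-0.57 ± 0.09, adjusted p = 0.00268). DRAM1, a lysosomal protein that promotes autophagy, was lower as well, at 8.44, 8.32, 8.44 and 8.33 in shControl and 8.0, 8.07, 7.99 and 8.02 in shCDK8 cells (-0.35 ± 0.07, adjusted p = 0.0119, and -0.37 ± 0.07, adjusted p = 0.00783). SPATA18, a regulator of mitochondrial quality, was the dimmest of the 32 genes (mean level 4.95) and did not pass in any comparison. CD82, a tetraspanin that suppresses metastasis, did not pass either (-0.15 in starved and -0.15 in serum-treated cells), although its 4 shCDK8 arrays all lay below its 4 shControl arrays.

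Of the 4 genes of DNA repair and nucleotide supply, 2 were higher in starved and 3 in serum-treated shCDK8 cells. The shares of all genes that were higher were 7.14% and 7.7%. POLH, a translesion DNA polymerase, passed at both times (0.28 ± 0.06, adjusted p = 0.0142, and 0.39 ± 0.06, adjusted p = 0.00250), with 8.51 to 8.54 on the shControl arrays and 8.78 to 8.93 on the shCDK8 arrays. XPC, a damage sensor of nucleotide excision repair, also passed at both times (0.24, adjusted p = 0.0479, and 0.33, adjusted p = 0.0127). RRM2B, the p53-inducible subunit of ribonucleotide reductase, passed after serum (0.30 ± 0.07, adjusted p = 0.0171) and differed by 0.21 before it (adjusted p = 0.0871). DDB2, a partner of XPC in damage recognition, passed in the average of both times alone (0.18 ± 0.04, adjusted p = 0.0138). All 4 shCDK8 arrays lay above all 4 shControl arrays in each of these 4 genes. Over all 32 genes this held for 20 genes (13% of all genes), the reverse held for 6 (12.5% of all genes), and the arrays overlapped in FBXW7, GADD45A, GDF15, PHLDA3, PIDD1 and SPATA18.

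**Figure D3:**
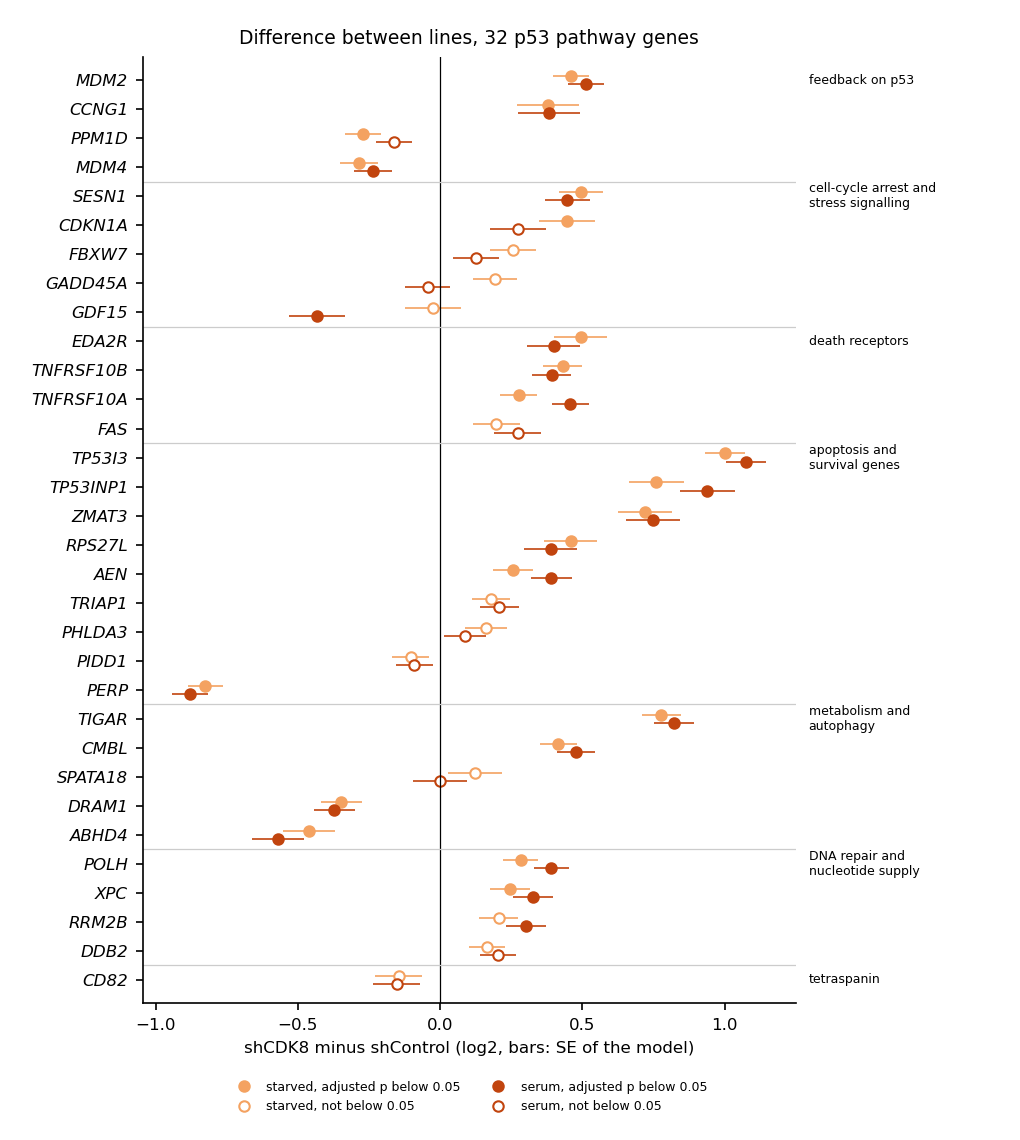
Difference between the lines (x axis, shCDK8 minus shControl, log2) for each of the 32 genes (y axis, grouped by role) in starved (light) and serum-treated cells (dark), with bars of 1 SE from the model; filled points passed at an adjusted p below 0.05. Most points lie to the right of 0, led by TP53I3 at 1.00 and 1.07, and PERP lies farthest to the left at -0.83 and -0.88.

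Single arrays weighed on the number of genes past the threshold in starved cells. The full data gave 21, and 10 passed without starved array 2 of shControl, where 8.63% of all genes passed, and 12 without starved array 1 or 2 of shCDK8 (7.98% and 8.09% of all genes). MDM2, TP53I3, TIGAR, TP53INP1, SESN1, ZMAT3, TNFRSF10B, PERP and CMBL passed in starved cells under each of 16 alternative settings, which include leaving out each array. The calls of the other 12 genes ended under at least 1 setting. Leaving out starved array 2 of shControl ended 11 of them (all but DRAM1), starved array 1 of shCDK8 ended 9 (all but POLH, RPS27L and EDA2R), starved array 2 of shCDK8 ended 9 (all but EDA2R, DRAM1 and ABHD4), and starved array 1 of shControl ended those of MDM4, CDKN1A, XPC, POLH, PPM1D and DRAM1. XPC, AEN and CCNG1, which also lost their calls without single serum arrays, passed in 3, 5 and 9 of the 16 settings, with adjusted p up to 0.227, 0.218 and 0.270. Of the 9 other genes the highest adjusted p was 0.122, for TNFRSF10A.

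After serum 13 genes passed under every setting, the 9 above together with TNFRSF10A, POLH, AEN and ABHD4. Without serum array 1 of shControl the calls of MDM4, GDF15, XPC, CCNG1, RPS27L, EDA2R and DRAM1 ended, and without serum array 1 of shCDK8 those of MDM4, GDF15, RRM2B, XPC, CCNG1, RPS27L and EDA2R. Leaving out serum array 2 of shControl ended the calls of MDM4, RRM2B, CCNG1, RPS27L and EDA2R. MDM4, which passed in 5 of 16 settings, lost its call without any 1 of the 8 arrays (adjusted p up to 0.211), and CCNG1 also without either starved array of shCDK8 (up to 0.256). In the average of both times 22 calls stood under all 15 settings. Those of GDF15, FAS, DDB2, TRIAP1 and FBXW7 each ended without at least 1 array, with adjusted p up to 0.143, 0.0578, 0.0583, 0.0589 and 0.132.

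Serum for 30 min raised GDF15 in both lines and GADD45A in shControl cells. In shControl cells 2 of the 32 genes thus rose and none fell, against 0.462% of all genes passing (0.423% risen and 0.038% fallen). In shCDK8 cells 1 rose, against 0.255% (0.25% risen and 0.00543% fallen). GDF15 read 9.69 and 9.59 in starved and 10.84 and 10.62 in serum-treated shControl cells, and 9.59 and 9.64 and then 10.18 and 10.41 in shCDK8 cells. In each line both serum arrays lay above both starved arrays, with a 2.13-fold rise in shControl (1.09 ± 0.10, adjusted p = 6.92e-04) and a 1.60-fold rise in shCDK8 cells (0.68 ± 0.10, adjusted p = 0.0256). The call in shCDK8 cells was lost when any 1 of 5 arrays was left out, the 4 starved arrays and serum array 2 of shCDK8, with an adjusted p of up to 0.249 over all settings. GADD45A read 9.11 and 9.05 in starved and 9.82 and 9.72 in serum-treated shControl cells, against 9.29 and 9.26 and then 9.64 and 9.82 in shCDK8 cells. It rose in shControl cells (1.61-fold, 0.69 ± 0.08, adjusted p = 0.00409), a call lost on leaving out the second starved shControl array (adjusted p = 0.0659), and it changed by 0.45 ± 0.08 in shCDK8 cells (adjusted p = 0.0778). In the average of both lines both genes rose (0.89 ± 0.07 and 0.57 ± 0.06), against 0.76% of all genes (0.684% risen and 0.076% fallen). Of the marker genes, CLDN4 also rose with serum in shControl cells (0.41 ± 0.07, adjusted p = 0.0496), and CLDN4 and COL1A1 rose in the average of both lines (0.37 ± 0.05 and 0.34 ± 0.06). Their part in the result was not tested.

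The other 30 genes passed in neither line. Their changes lay between -0.18 (ABHD4) and 0.29 (FBXW7) in shControl cells and between -0.28 (ABHD4) and 0.21 (TP53INP1) in shCDK8 cells. CDKN1A changed by 0.27 ± 0.10 and 0.09 ± 0.10 (adjusted p = 0.475 and 0.781), and MDM2 by 0.09 ± 0.06 and 0.14 ± 0.06 (adjusted p = 0.741 and 0.535). At an unadjusted p below 0.05 there were 4 of the 32 genes in shControl and 8 in shCDK8 cells, against 9.02% and 9.59% of all genes. The starved and serum arrays did not overlap in 50% and 65.6% of the 32 genes, against 39.7% and 41.2% of all genes. For shControl the median of the 32 changes was 0.00, for shCDK8 it was 0.06, and over all genes it was -0.01 in either line.

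**Figure D4:**
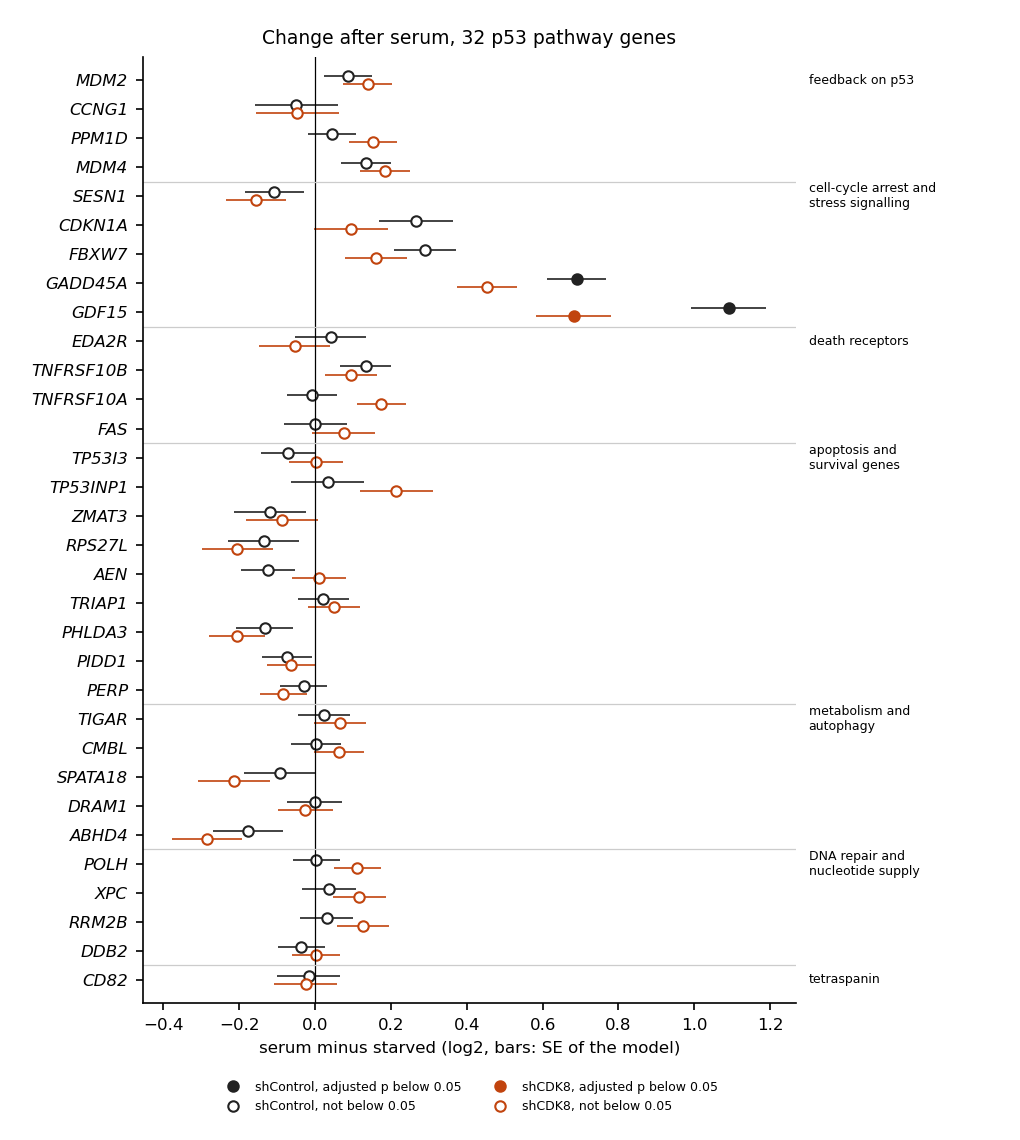
Change after serum (x axis, serum minus starved, log2) for each of the 32 genes (y axis, grouped by role) in shControl (black) and shCDK8 cells (red), with bars of 1 SE from the model; filled points passed at an adjusted p below 0.05. GDF15 and GADD45A stand apart at the right, and the other 30 genes lie between -0.28 and 0.29.

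The serum response was then compared between the lines. In limma's interaction test 0 of the 32 genes passed, and 0 of all 18418 (adjusted p = 0.9998 for each of the 32), and 0 of the 32 passed under any of 15 alternative settings. With no adjustment 1 of the 32 had a p below 0.05, GDF15 (difference -0.41 ± 0.14, unadjusted p = 0.0159), against 3.82% of all genes. Other differences of response were -0.24 ± 0.11 for GADD45A, -0.17 ± 0.14 for CDKN1A, 0.18 ± 0.09 for TNFRSF10A, 0.18 ± 0.14 for TP53INP1 and 0.05 ± 0.09 for MDM2. The same test compares the line differences before and after serum, so genes that passed at 1 time alone, such as GDF15, CDKN1A, PPM1D and RRM2B, are not shown to differ between the times.

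A further 30 p53 targets outside these genes were listed, of which 26 were measured. This list too was chosen with earlier results of these data known, so its counts are descriptive and not an independent check. In starved cells 9 of the 26 were higher in shCDK8 cells and none was lower, and after serum 11 were higher and 2 lower. The shares over all genes were 7.14% higher and 6.29% lower in starved cells, and 7.7% and 6.55% after serum. PLK2, a polo-like kinase, was by far the largest (2.50 ± 0.07 in starved cells, adjusted p = 4.73e-08, and 2.0 ± 0.07 after serum). APOBEC3C, a cytidine deaminase (0.74 ± 0.07, adjusted p = 8.36e-05, and 0.83), TRIM22, an interferon-inducible ubiquitin ligase (0.58 and 0.50), and ACER2, an alkaline ceramidase (0.45 and 0.71), followed. TRIM22 was dim, with a mean level of 4.34 (percentile 9.93). SUSD6 was among the 4 largest after serum (0.55). PMAIP1, a BH3-only protein, and PLK3 were lower after serum (-0.35 and -0.33). Serum raised PLK2, PLK3 and PMAIP1 in shControl cells (1.12, 0.74 and 0.72) and PLK2 and PMAIP1 in shCDK8 cells (0.63 and 0.54), 3 and 2 of 26 against 0.423% and 0.25% of all genes. The median line difference of the 26 was 0.16 in starved and 0.12 in serum-treated cells.

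Of 30 listed genes that encode p53 relatives or act on p53, 28 are reported here. They were likewise listed with earlier results of these data known. In starved cells 2 of the 28 were higher in shCDK8 cells, the deacetylase SIRT1 (0.31 ± 0.06, adjusted p = 0.0102) and the ubiquitin ligase COP1 (0.27). Lower were the deacetylase HDAC1 (-0.37 ± 0.06, adjusted p = 0.00375), WRAP53, a telomerase and Cajal body protein (-0.36), the ubiquitin ligase RCHY1 (-0.33) and the checkpoint kinase CHEK2 (-0.32). After serum SIRT1 was higher (0.35), and CHEK2 (-0.56 ± 0.08, adjusted p = 0.00130), WRAP53 (-0.52), HDAC1 (-0.41) and CDKN2A (-0.23) were lower. These 6 and 5 of 28 compare with 13.4% and 14.3% of all genes. Serum moved none of the 28 past the threshold in either line, and limma gave an unadjusted p below 0.05 for 2 of them in shControl and 0 in shCDK8 cells. In bulk samples such as these, a lower level in every cell and fewer cells with the transcript cannot be told apart.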

How the data were processed

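Total RNA of 8 HCT116 samples, 1 Affymetrix array each, was measured in 4 groups of 2 taken from the labels. The deposited values are log2 probe set levels that the authors made with RMA (background correction, quantile normalization and probe summary), per the submitters' processing notes. For the RMA version, the genome build and joint normalization of the arrays: not given in the sources used here. The number of arrays limits the precision.

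Of 33297 probe sets, 19460 were annotated with 1 gene, 1754 with several and 12083 were unlisted. The probe set with the highest mean was kept per gene, and the shared CDK8 probe set was added, which gave 18418 genes. A model of 4 group means was fitted to all of them with limma 3.58.1 in R 4.3.3 (4 residual and 5.49 prior degrees of freedom), with no filter, and p-values were two-sided. The procedure was tested on simulated data. Errors of differences are standard errors of the model. Genes were named with each array's value where they passed for serum, for the 14 largest averaged line differences, and where needed for their role group; of the other lists up to 4 per direction were named. Members and lists were chosen with earlier results of these data known. Settings tried were a variance trend, compared arrays alone, the replicate block, dim genes left out, cyclic loess, median centring, the mean of probe sets, all probe sets together and leaving out each array. Python 3.11.15 and matplotlib 3.10.9 drew the figures.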

Additional observations from a re-analysis of the deposited data

How the results depend on the processing

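The counts of the 32 genes past the threshold moved as follows. In starved cells the line comparison gave 21 genes in the fit reported and 13 with all 33297 probe sets fitted together, and leaving out 1 array gave 10 to 19. After serum the 21 genes became 14 to 20 without 1 array, and the 27 of the averaged line comparison 23 to 26. The serum comparison in shControl cells gave 2 genes, and 1 to 2 without 1 array. In shCDK8 cells it gave 1 gene, 2 with an intensity trend or with dim genes left out, 0 with the compared arrays alone, 0 with the replicate block, 0 with all probe sets together and 0 to 1 without 1 array. Over all genes, the settings that fitted the same 18418 genes on all arrays or the compared arrays gave 1964 to 3140 where 2473 passed (line, starved), 2315 to 3370 where 2625 passed (line, serum), 69 to 128 where 85 passed (serum, shControl), 28 to 100 where 47 passed (serum, shCDK8), 123 to 236 where 140 passed (serum, averaged) and 0 to 7 where 0 passed (interaction). The highest counts came with the intensity trend. Leaving out 1 array gave 1470 to 2317, 1453 to 2565, 33 to 85, 23 to 51, 89 to 135 and 0 to 1. For the averaged line comparison, the settings that fitted the same 18418 genes on all arrays gave 4163 to 4891 where 4299 passed. With all 33297 probe sets fitted together, 5.19% of probe sets passed in starved and 5.58% in serum-treated cells (lines), and 0.141% and 0.0901% for serum in shControl and shCDK8 cells. The causes were not tested. For the 32 genes, no called difference changed its direction under these settings.

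The labels give a replicate number in each group and do not say whether same-numbered arrays were handled together. Correlations of the deviations of same-numbered arrays lay between -0.19 and 0.13 over the 6 pairs of groups. With the replicate block the line comparisons gave 19 genes in starved and 20 in serum-treated cells. GDF15 in shCDK8 cells lost its call under it.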
